A study of Homo sapiens with 22 samples.

Results

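The human mitochondrial genome encodes 37 genes, and all 37 were found among the 60675 genes of the count table as the rows whose symbol starts with MT-. They comprised 13 mRNA genes, 22 tRNA genes and 2 rRNA genes, MT-RNR1 and MT-RNR2. The rule that chose them uses no measured value, although earlier results of these data were known. RNA sequencing was available for 22 libraries of HT1080, a human fibrosarcoma cell line, in 6 groups. The 4 untreated wild-type (WT) libraries were compared with 4 each of the engineered lines KDAC6H216A, KDAC6H611A and KDAC8H143A. WT cells treated for 2 days with 1 µM Tubastatin A, an inhibitor of KDAC6, or with 5 µM PCI-34051, an inhibitor of KDAC8, gave 3 libraries each. In each engineered line a catalytic histidine was replaced by alanine at the endogenous gene, in the first catalytic domain of KDAC6 (KDAC6H216A), in its second catalytic domain (KDAC6H611A) or in KDAC8 (KDAC8H143A). The methods describe KDAC6H216A cells as a pool of 3 independently obtained lines, whereas KDAC6H611A and KDAC8H143A are each described as a cell line obtained from single colonies. All libraries of KDAC6H216A come from that pool. Effects of the mutation and of the line or pool therefore cannot be told apart in any of the engineered lines. The KDAC8H143A line also carries an unintended base insertion in an intron of the gene. Replicates were described as biological.

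Mitochondrial DNA is transcribed from both of its strands as long precursors, which are cut mainly where tRNAs lie between the other genes. One precursor carries both rRNAs, 12 of the mRNAs and 14 of the tRNAs, and is here called the heavy-strand transcript, as is usual. The other carries MT-ND6 and 8 tRNAs and is called the light-strand transcript. The mRNAs encode core subunits of respiratory complex I (7 genes), complex III (MT-CYB), complex IV (MT-CO1, MT-CO2 and MT-CO3) and the ATP synthase, or complex V (MT-ATP6 and MT-ATP8). Because a precursor yields many RNAs at once, the levels of its single products also depend on how each is processed and how long it lasts.

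Several neighbouring genes share bases, which limits how reads can be assigned to them. The junctions are shown because the ratios within such pairs, given further on, depend on them. They were read 5′ to 3′ from GRCh38, the genome build of the deposited counts, and capitals mark the bases that belong to both genes. The first lies at chrM:8512-8587 (46 shared bases, starting with the first codon of MT-ATP6), the next at chrM:10745-10781 (7 shared bases) and the last at chrM:9192-9222 (1 shared base), all on the plus strand.
MT-ATP8 and MT-ATP6: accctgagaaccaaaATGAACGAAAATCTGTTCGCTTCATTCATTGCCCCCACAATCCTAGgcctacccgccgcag
MT-ND4L and MT-ND4: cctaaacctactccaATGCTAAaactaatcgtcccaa
MT-ATP6 and MT-CO3: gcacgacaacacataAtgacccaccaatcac
MT-ATP8 with MT-ATP6, and MT-ND4L with MT-ND4, each stay together in a single bicistronic mRNA.

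MT-ND6 is the only mRNA gene of the light strand, and it meets the heavy-strand gene MT-ND5 tail to tail. The last 30 bases of each gene are shown with the final 3 in capitals, MT-ND5 at chrM:14119-14148 on the plus strand and MT-ND6 at chrM:14149-14178 on the minus strand.
MT-ND5 end: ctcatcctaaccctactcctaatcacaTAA
MT-ND6 end: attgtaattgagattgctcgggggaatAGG
The annotated genes abut without sharing a base. Whether reads were counted by strand is not given in the sources used here. Without strand, reads from MT-ND6 cannot be told apart from antisense reads of the heavy-strand precursor.

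Total counts per library ran from 5248960 to 29862658, and the highest totals were those of the inhibitor-treated cells. HDAC6, which encodes KDAC6, had 16.1 ± 3.43 CPM (counts scaled to library size; SD, n = 4) in WT and 6.94 ± 0.834 CPM (n = 4) in KDAC6H216A, and 15.1 to 20.4 CPM on average elsewhere. The mean of HDAC8, which encodes KDAC8, ranged from 14.1 to 14.8 CPM over the 6 groups. For HDAC6 every KDAC6H216A library (6.22 to 7.96 CPM) was below every WT library (11.4 to 19.1 CPM), as in 4.19% of all genes tested. A lower HDAC6 level thus went with the mutation in that line. By qPCR the paper also reported slightly lower KDAC6 there, but no significant change by RNA sequencing. The mesenchymal markers VIM, FN1, SPARC, CD44 and LGALS1 were present in every library, from 193 to 4946 CPM, whereas S100A4 had at most 3.67 CPM. The epithelial marker CLDN4 reached 11.4 CPM, PECAM1 and CDH5 at most 2.13 CPM, and EPCAM, CDH1, KRT14, PTPRC, CD3E and HBB at most 0.306 CPM. No 2 libraries of a group agreed within sampling noise. In bulk RNA, fewer mitochondria per cell and less RNA per mitochondrion cannot be told apart.

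The 3 classes of mitochondrial RNA were represented very unequally. All 22 tRNA genes, of 59 to 75 bases, had 0 counts in all 22 libraries, which allows at most 0.730 CPM per gene in the smallest library and 0.103 CPM in the largest. The shortest of them, MT-TS2, which carries serine and lies at chrM:12207-12265 on the plus strand, shows how small these genes are beside the paired-end reads.
MT-TS2: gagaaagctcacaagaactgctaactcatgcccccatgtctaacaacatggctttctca
Genes of similar size were rarely counted anywhere in the genome. Of 1302 genes whose longest annotated transcript has fewer than 80 bases, 11 (0.845%) had a count in any library, against 35104 of 46470 (75.5%) with transcripts of 300 bases or more. No statement about tRNA levels, and none about light-strand tRNAs, was therefore possible.

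The share of the 2 rRNAs separated the libraries far more than any mRNA did. MT-RNR1 and MT-RNR2 encode the rRNAs of the small and large mitochondrial ribosomal subunits. They are among the targets of the kit (Ribo-Zero plus) with which rRNA was depleted before sequencing. In WT the 2 genes took 23.9%, 20.8%, 21.3% and 22.01% of all counts in replicates 1 to 4. In KDAC6H216A they took 15.1%, 13.1% and 13.7% in replicates 2 to 4 but 0.195% in replicate 1. In KDAC6H611A they took 24.5%, 38.0% and 21.0% in replicates 1 to 3 but 0.173% in replicate 4. So 1 library of each KDAC6 line stood apart from its group. In KDAC8H143A the share was 0.0259%, 0.00376%, 0.00431% and 0.00900%. It was 0.00101%, 0.00287% and 0.000564% with Tubastatin A and 0.00541%, 0.000802% and 0.000722% with PCI-34051. None of these 10 libraries overlapped any library of the other groups. Both rRNA genes were lower in every library of these 3 groups than in WT, as were 32.3% (KDAC8H143A), 29.4% (Tubastatin A) and 27.9% (PCI-34051) of all genes tested. In fits of 2 groups, the log2 fold change of MT-RNR2 from WT was -11.74 ± 0.79 (SE) in KDAC8H143A, -15.35 ± 0.28 for Tubastatin A and -14.97 ± 0.54 for PCI-34051, all called at an adjusted p below 0.01. MT-RNR1 differed by -10.20 ± 0.77, -12.49 ± 0.45 and -11.79 ± 0.76 in the same order. Both rRNA genes were also lower in every KDAC6H216A library than in any WT library, as were 4.19% of all genes tested. Together they took 0.195% to 15.1% of counts there, against 20.8% to 23.9% in WT, and neither was called. In KDAC6H216A, KDAC8H143A and with both inhibitors the condition and the extent of rRNA depletion cannot be told apart. This also limits the mRNA differences given below. For that reason library sizes for all CPM and fits were computed without these 2 genes.

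**Figure D1:**
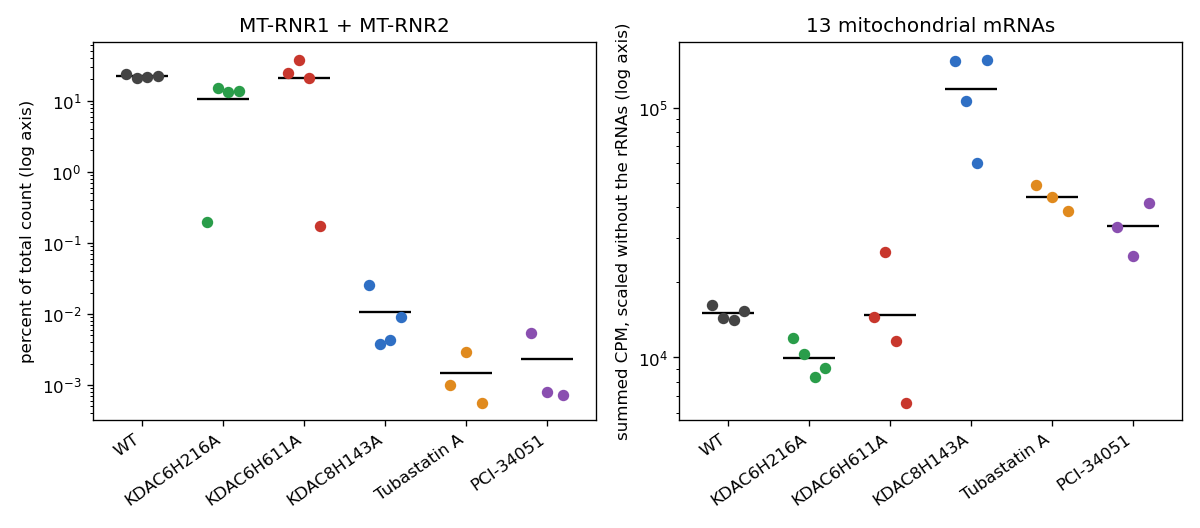
Left, share of all counts taken by MT-RNR1 and MT-RNR2 together, in percent on a log axis; right, summed CPM of the 13 mitochondrial mRNAs, scaled without the rRNAs, also on a log axis. Each point is a library and each bar the mean of its group. KDAC6H216A replicate 1 and KDAC6H611A replicate 4 sit at 0.195% and 0.173% on the left, but at 11946 and 6588 CPM on the right, below every library of KDAC8H143A and of the inhibitors.

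The mRNAs moved in another way. Their summed level was 16187, 14415, 14124 and 15405 CPM in WT, and 11946, 10356, 8364 and 9045 CPM in KDAC6H216A. It was 14480.3, 26411, 11668 and 6588 CPM in KDAC6H611A, so that the group spread to both sides of WT. It was 154552, 106855, 59986 and 155999 CPM in KDAC8H143A. In that line mitochondrial mRNA made up 6.43% to 14.8% of all counts other than the rRNAs, compared with 1.44% to 1.67% in WT. With Tubastatin A the sums were 49004, 43911 and 38624 CPM, and with PCI-34051 they were 33414, 25379.9 and 41674 CPM. All 10 libraries of these 3 groups therefore exceeded all WT libraries. The 2 KDAC6 libraries with little rRNA did not: KDAC6H216A replicate 1 was the highest of its group and still below WT, and KDAC6H611A replicate 4 was the lowest of all 22. Without them the means were 9255 ± 1013 CPM (SD, n = 3) in KDAC6H216A and 17520 ± 7828 CPM (n = 3) in KDAC6H611A.

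Within WT, level per gene length spanned 33.8 ± 3.68-fold (SD, n = 4) between the most and the least abundant mRNA. MT-CO3 had 4244 ± 484 CPM per kb and MT-CO1 3615 ± 252 CPM per kb, and these 2 overlapped. MT-ATP6 (1571 ± 104) and MT-ND4 (1134 ± 79.9 CPM per kb) followed, each separated from the next gene. MT-CO2, MT-CYB, MT-ND4L and MT-ND5 came next, from 770.3 to 574 CPM per kb, each overlapping its neighbour in that order. MT-ND1, MT-ND2 and MT-ND3 lay from 391 to 289 CPM per kb. MT-ATP8 (197 ± 24.2) and MT-ND6 (126 ± 7.73 CPM per kb) were the lowest. By group means KDAC6H216A held the same first 2 and last 2 genes in the same order, but the genes of both pairs overlapped. In its replicate 1 MT-CO1 (3927) was above MT-CO3 (3068), and MT-ND6 (50.1) above MT-ATP8 (41.5 CPM per kb).

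The span between genes changed with the groups, in a way that depended on the short genes. Among the 10 mRNA genes longer than 500 bases, the highest exceeded the lowest 4.33 ± 0.765-fold (n = 4) in KDAC8H143A, 7.65 ± 0.491-fold (n = 3) with Tubastatin A and 6.98-fold to 15.3-fold (n = 3) with PCI-34051. In WT this was 33.8 ± 3.68-fold. Over all 13 genes the span was 17.2 ± 2.43-fold in KDAC8H143A, narrower than in WT, but 77.2 ± 15.5-fold with Tubastatin A and 62.8-fold to 267-fold with PCI-34051, wider than in WT and with MT-ATP8 the lowest gene. In KDAC8H143A MT-CO1 led with 24203 ± 10118 CPM per kb and MT-ND6 had 5387 ± 1568 CPM per kb. With both inhibitors MT-CO1 led without overlapping the next gene, MT-CO3, and MT-ATP8 was last without overlapping MT-ND3.

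**Figure D2:**
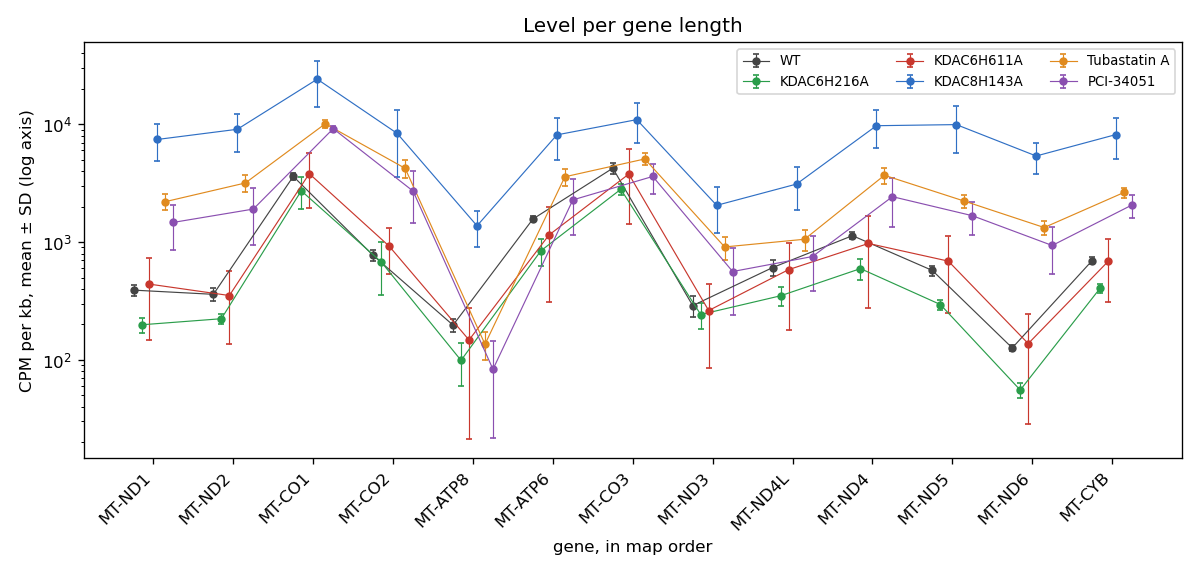
Level per gene length (CPM per kb, log axis) of the 13 mRNAs in their order along the mitochondrial genome, as the mean ± SD of 4 libraries (WT and engineered lines) or 3 libraries (inhibitors). MT-ND6 is lowest in WT at 126 CPM per kb, but reaches 5387 CPM per kb in KDAC8H143A, near the other genes of complex I.

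In KDAC6H216A cells 5 of the 13 mRNAs fell against WT and 0 rose (background 0.195% of genes called higher), and all 13 estimates were negative, with a median log2 fold change of -0.82. Genes were called at an adjusted p below 0.01 in the quasi-likelihood test of edgeR, with p-values adjusted by Benjamini-Hochberg across every gene tested. Of all 14373 genes tested, 0.64% were called lower. Here too the line and the extent of rRNA depletion cannot be told apart. The 5 were 4 subunits of complex I and the cytochrome b of complex III. MT-ND6 had 26.3, 35.1, 26.5 and 28.4 CPM against 70.1, 61.0, 65.3 and 68.8 in WT, a 2.32-fold fall (log2 fold change -1.21 ± 0.10 SE, adjusted p = 0.000368 in edgeR's test). The groups did not overlap for MT-ND6. MT-ND1, which forms part of the membrane arm of complex I, had 156, 223, 181 and 199 CPM against 389, 352, 331 and 423 in WT (-1.01 ± 0.12). MT-ND5 changed by -0.99 ± 0.11, MT-ND4 by -0.96 ± 0.14 and MT-CYB by -0.81 ± 0.10, with edgeR adjusted p-values of 0.00198, 0.00585 and 0.00320. In 10 of the 13 genes every KDAC6H216A library was below every WT library, compared with 4.19% of all genes tested. The exceptions were MT-CO1, MT-CO2 and MT-ND3.

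For the complex IV genes among these exceptions, replicate 1, the library of this group with little rRNA, was the one that was not below WT. MT-CO2 had 794 CPM there and 406, 299 and 360.1 CPM in replicates 2 to 4, and MT-CO1 had 6056 CPM against 3988, 3242 and 3538 CPM. Without replicate 1, edgeR called 12 of the 13 mRNAs lower, all but MT-ND3. Each other library left out lowered the count to between 1 and 3, with MT-ND6 called every time: 1 without WT replicate 1, WT replicate 4 or KDAC6H216A replicate 4, 2 without WT replicate 2, WT replicate 3 or KDAC6H216A replicate 2, and 3 without KDAC6H216A replicate 3. With all 6 groups in one fit 0 were called, at a median of -0.72. With GC content and length corrected for, MT-ND5 and MT-CYB were not called and MT-ATP6 was. DESeq2 called 9.

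In KDAC6H611A cells no mRNA was called in either direction. The background was 6.04% of genes called higher and 6.49% called lower. EdgeR gave 0 of 13 genes at an unadjusted p below 0.05, DESeq2 called 0, and the estimates ran from -0.43 for MT-ATP8 to 0.30 for MT-ND5 with SEs of 0.24 to 0.53. MT-CYB had 818, 1371, 559 and 382 CPM against 799, 771, 743 and 866 in WT. The KDAC6H611A libraries lay on both sides of WT, with replicate 2 highest and replicate 4 lowest. None of the 13 genes separated the groups, as 12.2% of genes did upwards and 14.3% downwards. For MT-CYB the 95% interval of the log2 fold change was -0.75 to 0.77, so a rise or fall within these bounds is not excluded with this spread between libraries. The 13 genes were again at 0 calls with any 1 library left out.

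In KDAC8H143A cells all 13 mRNAs rose, by 1.37 to 5.41 on the log2 scale with a median of 3.10 (edgeR, largest adjusted p = 0.000351). Of the 16146 genes tested, 29.5% were called higher, and the median over all of them was 0.02. In all 13 every KDAC8H143A library exceeded every WT library, as in 32.5% of all genes tested. MT-ND6 rose most, to 3419.9, 2717, 1706 and 3471 CPM, or 42.6-fold (log2 fold change 5.41 ± 0.23, adjusted p = 3.20e-08). MT-ND2, another complex I subunit, reached 12841, 9179, 4943 and 10901 CPM against 386, 350.4, 326 and 439 in WT (4.66 ± 0.27). Replicate 3 was the lowest of the line for both genes and still several times above WT.

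The other complex I subunits rose by 4.25 (MT-ND1), 4.11 (MT-ND5), 3.10 (MT-ND4), 2.83 (MT-ND3) and 2.36 (MT-ND4L) on the log2 scale. MT-CYB rose by 3.55. Of complex IV, whose core contains the products of MT-CO1 and MT-CO2, MT-CO2 rose by 3.44 and MT-CO1 by 2.74. MT-CO3 rose least of all 13, to 11635, 7486, 4616 and 10666 CPM against 3821, 3303, 3288 and 2896 CPM (1.37 ± 0.24, adjusted p = 0.000351 in edgeR). The ATP synthase genes MT-ATP8 and MT-ATP6 rose by 2.81 and 2.37. All 13 were called under every alternative run and without any 1 library. A correction for GC content and gene length raised the median from 3.10 to 4.57, and MT-ND6 from 5.41 to 6.94.

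**Figure D3:**
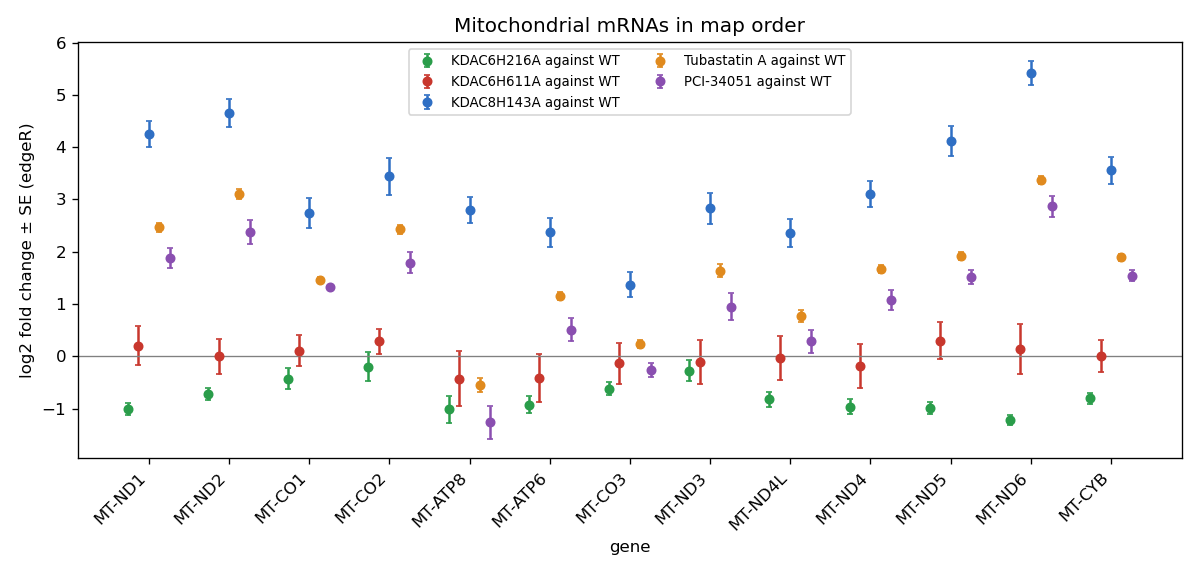
Log2 fold change against WT with its SE (edgeR) for the 13 mRNAs in genome order, for each engineered line and inhibitor. MT-ND6 has the highest point in KDAC8H143A (5.41), Tubastatin A (3.37) and PCI-34051 (2.87), and the lowest in KDAC6H216A (-1.21), while MT-ATP8 lies below 0 with both inhibitors (-0.55 and -1.26).

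Of the 13 mRNAs, 11 were called higher and 1 lower with Tubastatin A than in WT (edgeR, adjusted p below 0.01). Treatment and the extent of rRNA depletion cannot be told apart here. The background was 30.0% of genes called higher and 28.7% called lower among 14993 tested. MT-ND6 had 797, 689 and 608 CPM, 10.3-fold above WT (log2 fold change 3.37 ± 0.08, adjusted p = 3.15e-17 in edgeR). MT-ND2 (3.11), MT-ND1 (2.47) and MT-CO2 (2.43) followed. MT-CO1, the most abundant mRNA, had 16596, 15892 and 14305 CPM against 6005, 5362, 5150.1 and 5778 in WT (1.45 ± 0.06). MT-CO3 had a log2 fold change of 0.23 ± 0.08 and missed the threshold (adjusted p = 0.0126 in edgeR). It was called without WT replicate 1 (0.32) or without Tubastatin A replicate 3 (0.32). MT-ATP8 was the gene called lower, with 35.1, 28.7 and 20.4 CPM against 47.7, 36.3, 38.0 and 41.2 in WT (-0.55 ± 0.14, adjusted p = 0.00147). MT-ATP8 is the shortest of the mRNA genes, at 207 bases, and the call was lost when GC content and length were corrected for (-0.12) and when all 6 groups shared a fit (-0.47). In that shared fit MT-ATP6 (1.26) and MT-ND4L (0.87) were not called either, which left 9 of the 11 rises. In 11 genes every treated library exceeded WT, and in MT-ATP8 every treated library was lower, against 35.5% and 29.4% of all genes tested.

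By the same test and with the same limit, 9 of the 13 were called higher and 1 lower with PCI-34051. The background was 25.9% called higher and 25.9% called lower among 15031 genes. Again MT-ND6 rose most, with 466, 295 and 715 CPM, or 7.30-fold (2.87 ± 0.20, adjusted p = 1.30e-09 in edgeR). MT-ND2 (2.38), MT-ND1 (1.89), MT-CO2 (1.79), MT-CYB (1.54), MT-ND5 (1.52), MT-CO1 (1.32), MT-ND4 (1.07) and MT-ND3 (0.95) were also called. For 8 of the 9 every treated library exceeded WT, as in 32.5% of all genes tested. MT-ND3 was the exception, and its call was lost without PCI-34051 replicate 3, WT replicate 2, WT replicate 3 or WT replicate 4 (0.41 to 0.96), in DESeq2 (0.96) and in the fit of all 6 groups (1.02). MT-ND4 was not called in the fit of all 6 groups either (1.16), which left 7 of the 9 rises. MT-ATP6 (0.51), MT-ND4L (0.29) and MT-CO3 (-0.26) were not called. Without PCI-34051 replicate 2, MT-ATP6 (0.84) and MT-ND4L (0.60) were called, and without replicate 3, MT-CO3 (-0.50). MT-ATP8 had 13.6, 6.67 and 31.3 CPM, below all WT libraries as in 27.9% of all genes tested (-1.26 ± 0.32, adjusted p = 0.00267 in edgeR). This call was lost under the GC and length correction (-0.35), in DESeq2 (-1.24), in the fit of all 6 groups (-1.19) and without PCI-34051 replicate 1 (-1.12).

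Between the 2 inhibitors, which were used at different doses, no mRNA was called at an adjusted p below 0.01 (background 3.45% higher and 2.2% lower among 18409 genes). All 13 estimates were higher with Tubastatin A, by 0.13 to 0.73 with a median of 0.58, and 12 had an unadjusted p below 0.05 in edgeR, while DESeq2 called 0. For MT-ND6 the difference was 0.50 with a 95% interval of -0.05 to 1.05, and for MT-ND2 it was 0.73 with an interval of 0.07 to 1.38. The interval of MT-ND6 includes 0 although its unadjusted p was 0.0225 in edgeR, because intervals used only the residual degrees of freedom. None of the 13 genes separated the 2 groups of libraries, as 17.1% of genes did upwards and 14.5% downwards. The PCI-34051 replicates ranged more widely than the Tubastatin A replicates, with replicate 2 lowest and replicate 3 highest in summed mRNA. Without PCI-34051 replicate 3, 12 of the 13 were called higher with Tubastatin A, and without Tubastatin A replicate 3, 1 was called.

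The mix of mRNAs within a library needs no scaling. In KDAC8H143A and with Tubastatin A its complex IV share lay wholly below WT. Complex IV genes made up 64.1%, 63.6%, 63.0% and 60.1% of the mRNA counts in WT and 42.6%, 43.4%, 38.9% and 45.6% in KDAC8H143A. Complex I genes made up 23.7%, 23.8%, 24.2% and 26.6% in WT and 44.7%, 43.9%, 48.1% and 41.7% in KDAC8H143A. With Tubastatin A complex IV made up 50.0%, 51.6% and 52.5%, and with PCI-34051 57.1%, 64.6% and 50.7%, so that PCI-34051 replicate 2 was above all WT libraries and the other 2 were below them. MT-CO3 carried much of the difference, with 18.8% to 23.6% of mRNA counts in WT, 6.84% to 7.70% in KDAC8H143A, 9.01% to 9.17% with Tubastatin A and 8.15% to 8.86% with PCI-34051.

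MT-ATP8 divided the inhibitors from WT and KDAC8H143A. Its share of mRNA counts was 0.295%, 0.252%, 0.269% and 0.268% in WT and 0.240%, 0.276%, 0.241% and 0.211% in KDAC8H143A, which overlapped. It was 0.0717%, 0.0654% and 0.0529% with Tubastatin A and 0.0408%, 0.0263% and 0.0752% with PCI-34051, all far below WT. The same low share occurred in KDAC6H216A replicate 1 (0.0718%) and KDAC6H611A replicate 4 (0.0482%), but not in the other 6 KDAC6 libraries (0.174% to 0.268%). Those 2 libraries also had complex IV at 77.5% and 71.0% of mRNA counts, above all WT libraries, and MT-CO1 at 50.7% and 51.1% against 36.5% to 37.5% in WT. Complex IV was above all WT libraries as well in KDAC6H216A replicates 2 to 4 (65.9%, 66.4% and 64.9%) and KDAC6H611A replicate 3 (68.5%). KDAC6H611A replicates 1 and 2 (61.6% and 61.8%) lay within the WT range. MT-CO1 took 37.6% to 39.6% in these 6 KDAC6 libraries. Low rRNA and a low share of MT-ATP8 thus occurred together in these libraries and with both inhibitors, whereas in KDAC8H143A low rRNA occurred with a share of MT-ATP8 near that of WT. The part of depletion in these shares was not tested.

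**Figure D4:**
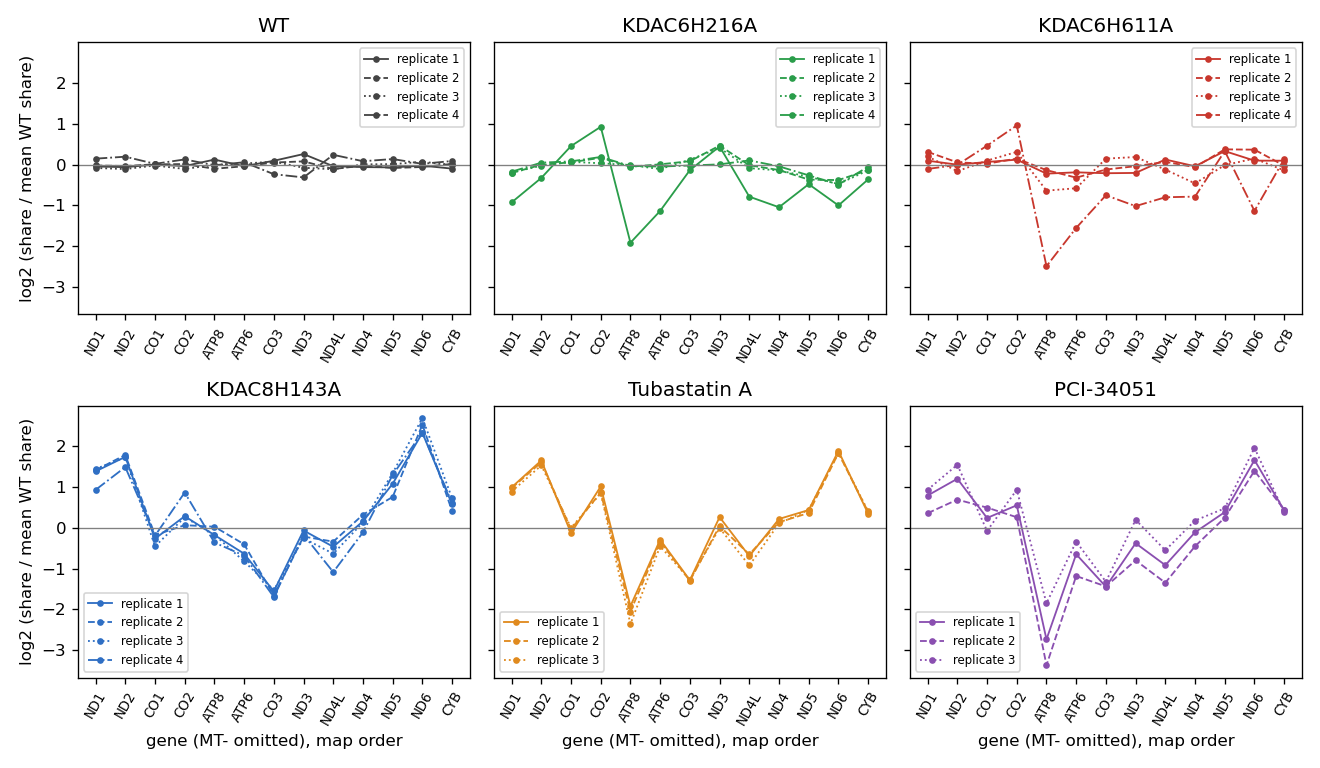
Each line is a library and gives, for the 13 mRNAs in genome order, the log2 ratio of the gene's share of mRNA counts to its mean share in WT. KDAC6H216A replicate 1 and KDAC6H611A replicate 4 leave their groups and dip at MT-ATP8 as the inhibitor libraries do, and MT-ND6 is well above its WT share in every library of KDAC8H143A and of both inhibitors.

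The 2 bicistronic mRNAs were compared through the level per length of their upper and lower genes. MT-ATP8 over MT-ATP6 was 0.125 ± 0.00997 (SD, n = 4) in WT, 0.173 ± 0.0170 (n = 4) in KDAC8H143A, 0.0374 ± 0.00365 (n = 3) with Tubastatin A and 0.0336 ± 0.00891 (n = 3) with PCI-34051. In the KDAC6 lines it was 0.0730 in KDAC6H216A replicate 1 and 0.0653 in KDAC6H611A replicate 4, the libraries with little rRNA, and 0.120 to 0.142 in the other 6. In WT and KDAC6 libraries MT-ND4L over MT-ND4 lay between 0.492 and 0.675. It lay between 0.272 and 0.347 in KDAC8H143A and between 0.262 and 0.322 with the inhibitors. Since both genes of a pair are on the same RNA, and the junctions printed above hold shared bases, these ratios also depend on how reads were assigned within each pair.

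Light-strand expression was followed by the ratio of MT-ND6 to MT-CYB, the heavy-strand mRNA gene that follows it across the tRNA gene MT-TE. In WT there were 8.78, 7.92, 8.80 and 7.96 MT-ND6 counts per 100 MT-CYB counts. In KDAC8H143A there were 28.2, 36.2, 32.6 and 27.7, with Tubastatin A 24.2, 22.7 and 22.5, and with PCI-34051 19.6, 16.1 and 24.9. All 10 libraries were above all WT libraries, by 3.71-fold, 2.76-fold and 2.38-fold on average. In KDAC6H216A there were 5.38, 7.05, 6.62 and 6.18, all below WT (0.751 of the WT ratio). In KDAC6H611A there were 8.36, 10.9 and 10.2 in replicates 1 to 3 and 3.48 in replicate 4.

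The exact permutation test over libraries, two-sided, gave p = 0.0286 for KDAC6H216A and KDAC8H143A, the smallest p that 4 against 4 allows. With 3 against 4 the inhibitors reached p = 0.0571 in the exact permutation test, which is also the smallest possible and cannot pass 0.05. After Benjamini-Hochberg adjustment over 12 such tests all 4 values became 0.098, so none passed 0.05. KDAC6H611A gave p = 0.943 and Tubastatin A against PCI-34051 gave p = 0.4 in the same exact permutation test. Against MT-ND5 in place of MT-CYB, KDAC6H216A overlapped WT and its log2 difference shrank from -0.41 to -0.23 (exact permutation p = 0.0571). The 2 KDAC6 libraries with little rRNA had the lowest ratios of all 22, so low rRNA came with a low ratio there. Without KDAC6H216A replicate 1 the log2 difference was -0.34, and without KDAC6H611A replicate 4 that of KDAC6H611A was 0.23 in place of -0.15.

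The ratio of MT-RNR2 to MT-RNR1 also differed. It was 4.73, 4.72, 4.65 and 3.08 in WT and 1.31, 1.21, 1.60 and 1.89 in KDAC8H143A (log2 difference -1.51, exact permutation p = 0.0286, the smallest possible). It was 0.717, 0.468 and 1.06 with Tubastatin A and 0.386, 0.966 and 0.662 with PCI-34051 (exact permutation p = 0.0571 each, the smallest possible). After adjustment over the 12 tests these too became 0.098. In KDAC6H216A replicate 1 and KDAC6H611A replicate 4 the ratio was 3.11 and 7.12, and both KDAC6 groups overlapped WT. The ratios with the inhibitors rest on 161 to 1315 rRNA counts per library.

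**Figure D5:**
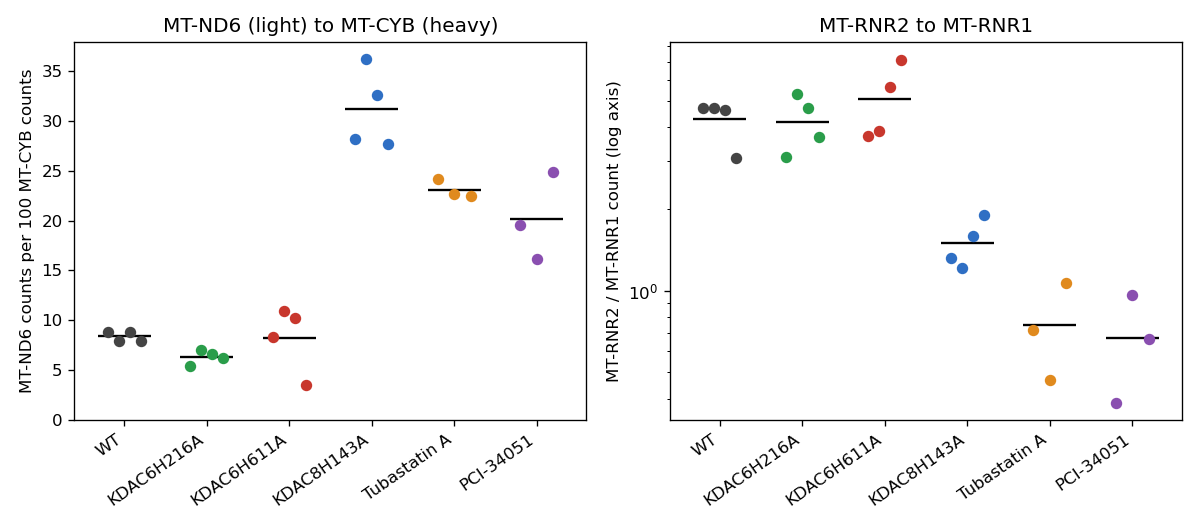
Left, MT-ND6 counts per 100 MT-CYB counts, from 0; right, ratio of MT-RNR2 to MT-RNR1 counts on a log axis. Points are libraries and bars are group means. On the left KDAC8H143A (27.7 to 36.2) and both inhibitors (16.1 to 24.9) lie above WT (7.92 to 8.80), and on the right the same 3 groups (0.386 to 1.89) lie below WT (3.08 to 4.73).

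Nuclear DNA holds old copies of mitochondrial sequence, and reads can match both. Of 310 annotated rows for such copies, 147 had a count and 3 exceeded 1000 counts in a library: MTATP6P1, MTCO1P12 and MTRNR2L1. MTATP6P1 on chromosome 1 is 98.5% identical to MT-ATP6, with 10 differences over 681 bases. A stretch of 60 bases from both is shown to illustrate how alike they are, and capitals mark the differences. It spans chrM:8642-8701 in MT-ATP6 and chr1:633811-633870 in MTATP6P1 (GRCh38, plus strands). The differences are C129T, A151C and A175G, counted from 1 at the start of MT-ATP6, with the base of MT-ATP6 first.
MT-ATP6 window: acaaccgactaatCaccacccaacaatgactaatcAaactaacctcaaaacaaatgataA
MTATP6P1 window: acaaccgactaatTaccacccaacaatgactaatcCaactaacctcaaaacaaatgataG
MTATP6P1 took 12.8% ± 0.469 (SD, n = 4) of the counts of the pair in WT, 19.7% ± 2.01 (n = 4) in KDAC8H143A, 3.77% ± 0.244 (n = 3) with Tubastatin A and 4.28% ± 0.441 (n = 3) with PCI-34051. The values of MT-ATP6 are therefore uncertain by about these shares. MTCO1P12 (98.7% identical to MT-CO1) took at most 0.895% of its pair. MTRNR2L1 on chromosome 17, 88.9% identical to MT-RNR2 over 1240 aligned bases, had 43639.8 ± 7006 counts (SD, n = 4) in WT and 26.8 ± 31.6 (n = 4) in KDAC8H143A, or 3.13% ± 0.215 and 3.13% ± 1.26 of its pair with MT-RNR2.

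Mitochondrial RNA is made and cut by proteins of nuclear genes. For mitochondrial gene expression 51 nuclear genes were examined, all of them tested. They serve transcription (6), replication of mitochondrial DNA (6), RNA processing (13), RNA stability and decay (7), rRNA maturation (8) and tRNA maturation (11). In KDAC6H216A 0 were called (edgeR, adjusted p below 0.01, with 5 at an unadjusted p below 0.05), with a median log2 fold change of 0.04. In KDAC6H611A 1 was higher (1.96%) and 3 were lower (5.88%), against 6.04% and 6.49% of all genes. The genes FASTKD2 (-0.60 ± 0.10), FASTKD5 (-0.56 ± 0.11) and TBRG4 (-0.48 ± 0.10), of a family of mitochondrial RNA-binding proteins, fell there. FASTK, FASTKD1 and FASTKD3, of the same family, were not called. PDE12, which trims the poly(A) tails of mitochondrial RNA, rose by 0.37 ± 0.08.

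In KDAC8H143A 11 were higher (21.6%) and 23 lower (45.1%), against 29.5% and 28.4% of all genes. POLRMT, the mitochondrial RNA polymerase, rose from 75.6 ± 7.67 to 221 ± 66.4 CPM (n = 4 each; log2 fold change 1.54 ± 0.19). PUS1, which makes pseudouridine in tRNA, rose by 1.72 ± 0.21. TFAM, which packages mitochondrial DNA and starts its transcription, changed from 100.3 ± 3.63 to 38.6 ± 8.33 CPM (-1.37 ± 0.14), and TEFM, an elongation factor of POLRMT, changed by -1.38 ± 0.24. Of 7 genes for RNA stability and decay, 0 were higher and 6 lower (85.7%). Among the 6 were LRPPRC (-0.57 ± 0.10) and SLIRP (-0.77 ± 0.15), which stabilise mitochondrial mRNAs together, and PNPT1 (-1.25 ± 0.11), a subunit of the RNA-degrading complex. Higher and lower were 1 and 3 of 6 for transcription, 3 and 2 of 6 for replication, and 2 and 6 of 13 for RNA processing. For maturation of rRNA they were 2 and 2 of 8, and for maturation of tRNA 3 and 4 of 11.

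With Tubastatin A 2 of the 51 were higher (3.92%) and 25 lower (49.0%), against 30.0% and 28.7% of all genes. With PCI-34051 2 were higher (3.92%) and 22 lower (43.1%), against 25.9% each way. TRMU, which thiolates mitochondrial tRNAs, changed from 58.3 ± 3.47 CPM in WT (n = 4) to 28.5 ± 0.902 (n = 3) with Tubastatin A and 29.2 ± 2.09 (n = 3) with PCI-34051. MRM1, an rRNA methyltransferase, changed by -0.93 ± 0.12 with Tubastatin A, and CDK5RAP1, a tRNA-modifying enzyme, by -0.79 ± 0.08 with PCI-34051. TRMT5, a tRNA methyltransferase, and PTCD2 rose with both inhibitors, by 0.47 and 0.37 with Tubastatin A and by 0.47 and 0.36 with PCI-34051. POLRMT was not called with either (0.13 ± 0.06 and 0.15 ± 0.07), and 0 of the 51 were called between the inhibitors in edgeR, with 6 at an unadjusted p below 0.05.

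Nuclear genes of the same respiratory complexes and of the ATP synthase were mostly called in the other direction from the mitochondrial mRNAs in KDAC8H143A. In KDAC8H143A 5 of 77 tested (6.49%) were higher and 57 (74.0%) lower, against 29.5% and 28.4% of all genes, with a median log2 fold change of -0.98, while all 13 mitochondrial mRNAs rose. The 5 were ATP5F1D (0.67), COX7A1 (3.01), NDUFA10 (0.40), NDUFA4L2 (1.57) and NDUFS7 (0.71), named after their values were seen. With Tubastatin A 17 of 76 (22.4%) were higher and 30 (39.5%) lower, against 30.0% and 28.7% of all genes. With PCI-34051 8 of 76 (10.5%) were higher and 34 (44.7%) lower, against 25.9% each way. Between the inhibitors 8 of 78 (10.3%) were higher with Tubastatin A and 0 lower, against 3.45% and 2.2% of all genes. In KDAC6H611A 0 were higher and 1, ATP5F1A (-0.999), was lower, and in KDAC6H216A 0 were called in edgeR in either direction, with 1 at an unadjusted p below 0.05.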

How the data were processed

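RNA of HT1080 cells was depleted of rRNA and sequenced as paired ends. Per the labels and methods, the authors trimmed reads with Trimmomatic 0.39, aligned them with Bowtie2 2.4.5 to GRCh38 and counted them with RSEM 1.3.3. The deposited values are RSEM expected counts per gene, which the authors had not scaled, and they were rounded to whole numbers for the fits. The annotation release and the use of strand are not given in the sources used here. All value columns were used (0 left unused), and total counts ran from 5248960 to 29862658 per library. Intervals and limits from a count of 0 (3 counts) cover counting error only.

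Each group was compared with WT, and Tubastatin A with PCI-34051, in fits of 2 groups over all genes that pass filterByExpr, with edgeR 4.0.16 in R 4.3.3 (quasi-likelihood test, Benjamini-Hochberg adjustment, threshold 0.01). Library sizes and TMM factors left out MT-RNR1 and MT-RNR2, which stayed in the fits, so that their uneven counts did not set the scale of the mRNAs. CPM used TMM over all libraries, and CPM per kb divided by the length of the gene. The SE of a log2 fold change is its size over the square root of F, and intervals used the residual degrees of freedom of the fit. These are fewer than those of the quasi-likelihood test, so an interval can include 0 where the unadjusted p is below 0.05. Ratios within a library used a pseudocount of 0.5 in their tests and an exact permutation test over libraries, two-sided. Class sums got no test. Gene positions and lengths came from GENCODE release 44 (56558 of 60675 genes matched by identifier) and sequences from GRCh38. The place of MTRNR2L1 came from RefSeq.

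Alternatives were DESeq2 1.42.0, other scalings and filters, an adjusted p of 0.05, all 6 groups in one fit, the replicate number as a block, GC content and length corrected with smooth terms (mgcv 1.9.3), and leaving out each library. Simulated counts in which 200 genes had been changed served to test the model. Summaries used scipy 1.17.1, pandas 2.3.3 and numpy 2.4.6 in python 3.11.15, alignments of copies biopython 1.88, and figures matplotlib 3.10.9. The members and gene lists were chosen with earlier results of these data known. The genes named were the mRNA and rRNA genes, any tRNA gene called, and, of the 51 nuclear genes of mitochondrial gene expression, the 2 largest rises and 2 largest falls called in each comparison. LRPPRC, SLIRP, PNPT1, TBRG4, FASTK, FASTKD1, FASTKD3, HDAC6, HDAC8 and the values of POLRMT with the inhibitors were added after their values were seen.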

Additional observations from a re-analysis of the deposited data

Results flagged for a closer look

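Of 72 groups of 4 libraries examined for a library far from the others, 3 held one, and chance alone sets apart about 1 in 20 such groups. The log2 ratio of MT-RNR2 to MT-RNR1 was 1.62 in WT replicate 4, below a group median of 2.23. In KDAC6H216A replicate 1 the 2 rRNAs took 0.195% of all counts, against a group median of 13.4%. In the same library the complex IV genes took 77.5% of mitochondrial mRNA counts, against a group median of 66.1%. Groups of 3 libraries were not examined.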

How the results depend on the processing

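No called result reversed under the alternatives run. The 13 mRNAs were called higher in KDAC8H143A and 0 were called in KDAC6H611A under each of them. The 5 calls in KDAC6H216A became 9 at an adjusted p of 0.05, 8 without a filter, 0 with all 6 groups in one fit and 9 in DESeq2, and 1 to 12 with a library left out. Between the inhibitors 0 calls became 2 at an adjusted p of 0.05, 13 without a filter and 0 to 12 with a library left out. For MT-ND6 over MT-CYB, the KDAC6H216A difference was -0.23 with MT-ND5 as the reference and -0.47 to -0.34 with a library left out, and that of KDAC8H143A 1.82 to 1.94. MT-RNR2 over MT-RNR1 in KDAC8H143A ranged from -1.67 to -1.42. With 3 libraries against 4 these exact permutation tests cannot go below 0.0571. An unadjusted p below 0.05 that was lost with a library left out is therefore set by the number of samples. No ratio passed 0.05 after adjustment over the 12 tests. The loss of an unadjusted p below 0.05 with MT-ND5 as the reference is not set by that number, as its groups overlapped. As shares of all counts, the WT levels became 11879.8 CPM for mRNA and 220137 CPM for rRNA. Scaling on nuclear protein-coding genes moved the median of all genes in KDAC8H143A from 0.02 to 0.14. The causes of the other changes were not tested.

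Same-numbered replicates did not deviate together in every pair of any comparison (correlations up to 0.175), so the numbers were not taken to pair the samples. With the replicate block, 1 mRNA was called between the inhibitors, 11 for PCI-34051 and 12 for Tubastatin A against WT, and 13, 0 and 4 for the lines KDAC8H143A, KDAC6H611A and KDAC6H216A, and the MT-ND6 to MT-CYB differences of -0.41 in KDAC6H216A and 1.89 in KDAC8H143A had p = 0.125, the smallest an exact permutation test of 4 pairs allows. The tRNA genes, at 0 counts, gave no value under any alternative.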
